A study of Drosophila melanogaster with 6 samples.

Results

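The genes described here are the secreted serine proteases of the *Drosophila* midgut that carry the names trypsin (Try) and Jonah (Jon, followed by the chromosome band of the gene). They were chosen by symbol alone, as the rows of the deposited count table whose gene name starts with Jon and a digit or ends in Try, and 27 of 17558 genes met that rule, 16 Jonah genes and 11 trypsins. RNA was sequenced from enteroendocrine cells (EEs), the hormone-secreting cells of the gut epithelium, sorted by FACS from the intestines of adult female flies, to ask what becomes of the EE transcriptome upon depletion of the homeodomain transcription factor *pros*. There were 3 control samples (ProsV1-Gal4ts>UAS-GFP) and, as *pros*-depleted group, 3 samples with the same driver and reporter plus pros-RNAi (the labels of replicates 2 and 3 spell the driver Gal5ts and Gal6ts). Flies of both groups were 5–7 d old and spent 7 days at 29 °C, the temperature at which Gal80ts no longer holds back Gal4, so the controls carry the driver, the reporter and the heat exposure but no hairpin. About 20000 living GFP+ cells were sorted per sample from the pooled guts of many flies, so a replicate is a pool and not an animal. Sorting rested on GFP under the *pros* driver, the hairpin line used for sequencing is not named in the sources used here, and the RNA was amplified before library preparation.

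Trypsins cut proteins after lysine and arginine, while the Jonah proteases are gut-specific members of the same family of chymotrypsin-like serine peptidases. Both are made as inactive precursors with a signal peptide, are secreted into the gut lumen and break down dietary protein. In the fly midgut they are known as products of enterocytes, the absorptive cells, and EEs are known instead for peptide hormones such as tachykinin and allatostatins.

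Between 27183747 and 40766059 counts per library lay on genes, so 3 counts corresponded to 0.0755 to 0.110 CPM (the usual count relative to library size, here after TMM scaling of the sizes). *pros* itself had 499.8, 548 and 836 CPM in control replicates 1 to 3 and 162, 138 and 162 CPM in *pros*-depleted replicates 1 to 3. Of 10 EE markers 9 were called lower, and their summed level went from a range of 93355–103386 CPM in the controls to 6555–10923 CPM in the *pros*-depleted EEs. Of 8 enterocyte markers edgeR called 5 higher and 3 in neither direction and DESeq2 called 6 higher and 1 lower. Over all genes tested edgeR called 4.73% higher and 7.96% lower, and DESeq2 8.23% and 11.1%. The 5 were *nub* and the digestive enzyme genes *Amy-p*, *Amy-d*, *Mal-A1* and *Mal-A6*. *Myo31DF* and *Npc2f* were not called by edgeR (log2 fold changes 1.21 and 0.31, edgeR adjusted p = 0.0252 and 0.425). The summed level of all 8 was 1012–1173 CPM in the controls and 1648–3788 CPM in the *pros*-depleted EEs, and none of them was at 0 in any group. The marker that DESeq2 called lower was *mex1*, a midgut gene, with 791, 784 and 564 CPM in the controls and 385, 450.5 and 225 CPM in the *pros*-depleted EEs (edgeR log2 fold change −1.01, adjusted p = 0.0319). Of 5 progenitor markers 2 were called higher, from sums of 214–296 to 490.4–695 CPM, and of 3 copper cell markers 1 was called lower, *Ptx1*, a transcription factor gene also known from EEs, which made up most of the list's sum of 149–183 CPM in the controls and 69.5–91.0 CPM in the *pros*-depleted EEs. Markers of tissues outside the epithelium were low in both groups. The 5 muscle markers summed to 22.1–30.2 CPM in the controls and 5.41–8.71 CPM in the *pros*-depleted EEs, with *up* called lower and 4 not called. The 3 fat body markers found in the table summed to 1.28–8.96 and then 3.44–13.2 CPM. The 2 hemocyte markers summed to 2.99–19.2 and then 0.183–2.47 CPM. Of the fat body and hemocyte markers edgeR called none, and DESeq2 called *Hml* lower. The part of enterocyte or progenitor RNA in the values below was not tested. In such sorted pools a larger number of cells that express a gene and more of its RNA per cell cannot be told apart.

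All 27 proteases passed the filter of at least 10 counts in at least 3 libraries, and the lowest count of any of them was 5, for *Jon44E* in a control library. In the edgeR quasi-likelihood fit over 10374 genes, 6 of the 27 were called higher in *pros*-depleted EEs (adjusted p below 0.01 with a log2 fold change beyond 0.5 in size), against 4.73% of all genes tested. They were the trypsins *lambdaTry*, *kappaTry*, *thetaTry* and *iotaTry* and the Jonah genes *Jon65Aiv* and *Jon65Aiii*. None was called lower, against 7.96% of all genes tested. At an unadjusted p under 0.05, 14 were higher and 1 was lower, where 18.7% and 20.0% of all genes passed in these directions. At an adjusted p under 0.05 the counts were 11 and 1, with 11.4% and 14.6% of all genes, and DESeq2 at the original thresholds called 10 higher and 0 lower, with 8.23% and 11.1% of 11449 genes. The log2 fold change was positive for 17 of the 27, against 51.4% of all genes, and its median was 1.35 against 0.02 over all genes tested. The CPM of the 3 *pros*-depleted libraries all lay above the 3 controls for 13 proteases, which 20.4% of all genes did, and all below for 0, which 22.5% of all genes did. An exact permutation test of 3 libraries against 3 cannot give a two-sided p below 0.1, and these 13 all had that value.

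**Figure D1:**
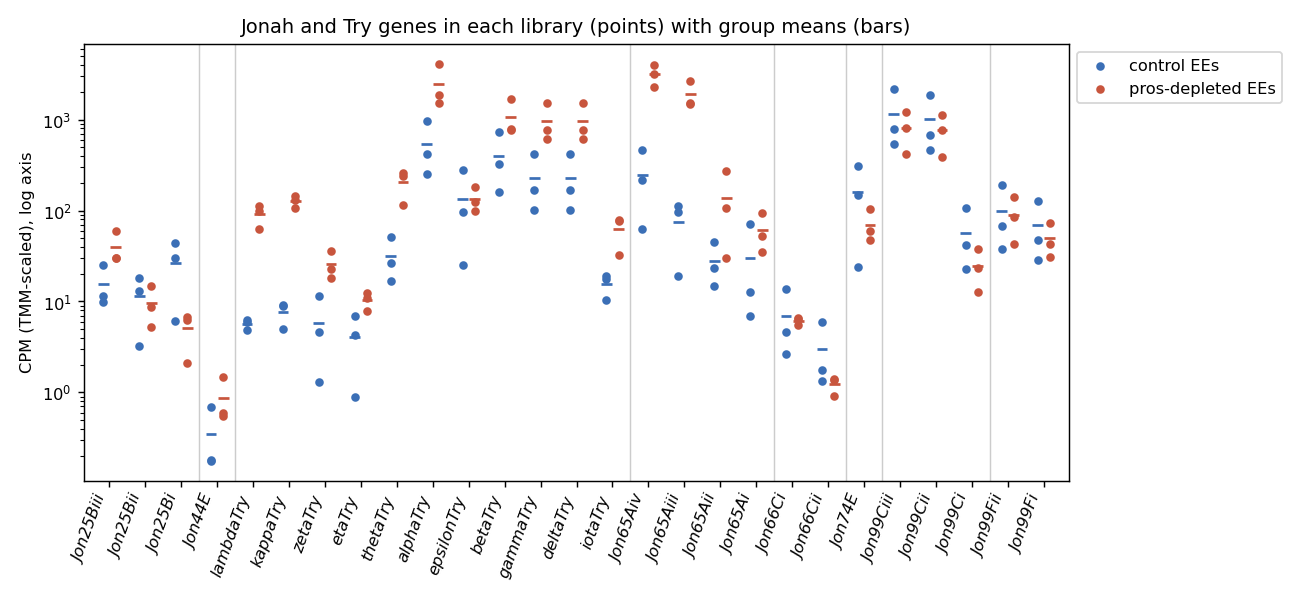
Level of each of the 27 proteases in each library, in CPM on a log axis, along the vertical, with the genes along the horizontal in genome order, 1 point per library, blue for control and red for *pros*-depleted EEs, and a bar for each group mean. The 3 *pros*-depleted points lie above all 3 control points for 13 genes, among them 10 of the 11 trypsins, and the points of the Jon99 genes are intermingled.

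The 11 trypsin genes lie in 1 cluster on chromosome 2R, positions 11336840 to 11357537 of BDGP6, a stretch of 20698 bp. Each has a single exon of 810 to 1071 bp and codes for a protein of 252 to 280 residues. All 11 had a positive log2 fold change, from 0.03 to 4.05 with a median of 2.08, where 51.4% of all genes tested were positive. For 10 the *pros*-depleted libraries all lay above the controls, and 4 were called higher, against 20.4% and 4.73% of all genes. Of the called genes, *lambdaTry* and *kappaTry* lie at the left end, *iotaTry* at the right end and *thetaTry* just to the left of the abundant *alphaTry*.

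*lambdaTry* (FBgn0043470, 2R, 11336840–11337791, plus strand) had 6.01, 4.85 and 6.30 CPM in control replicates 1 to 3 and 98.7, 113 and 62.5 CPM in *pros*-depleted replicates 1 to 3. Every *pros*-depleted library was therefore far above every control, and the control libraries lay close together. Its mean rose 16.0-fold, from 5.72 ± 0.766 to 91.4 ± 26.0 CPM (mean ± SD, n = 3), with an edgeR log2 fold change of 4.0 ± 0.27 (SE; edgeR adjusted p = 0.000108). Its neighbour *kappaTry* (FBgn0043471, 2R, 11337797–11338733, minus strand) had 8.91, 5.03 and 9.23 CPM in the controls and 130, 146 and 108 CPM in the *pros*-depleted EEs. It rose by a log2 fold change of 4.05 ± 0.29 (SE; edgeR adjusted p = 0.000119), again with widely separated groups. The 3′ ends of these genes face each other across 5 bp. Whether counting used strand is not given in the sources used here, so a read that runs past one end could have been counted for the other gene. Both were called in all 13 alternative fits, including each fit without 1 library.

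*thetaTry* (FBgn0011555, 2R, 11341714–11342760, minus strand) had 26.3, 16.8 and 51.2 CPM in the controls and 241, 259 and 114 CPM in the *pros*-depleted EEs. Its log2 fold change was 2.70 ± 0.47 (SE; edgeR adjusted p = 0.00463), and the lowest *pros*-depleted library still held more than the highest control. *iotaTry* (FBgn0015001, 2R, 11356720–11357537, plus strand), at the right end of the cluster, had 10.3, 17.6 and 19.0 CPM in the controls and 79.3, 75.9 and 32.6 CPM in the *pros*-depleted EEs. Its log2 fold change was 2.00 ± 0.38 (SE; edgeR adjusted p = 0.00667), and *pros*-depleted replicate 3 was the low one of its group for both genes. These calls were less firm than those of *lambdaTry* and *kappaTry*. *thetaTry* was not called without control replicate 1 (adjusted p = 0.0209), control replicate 2 (0.0149), *pros*-depleted replicate 1 (0.0162) or *pros*-depleted replicate 2 (0.0137). *iotaTry* was called in the fit without *pros*-depleted replicate 3 but in none of the other 5 such fits, where its adjusted p reached 0.0254.

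The most abundant trypsins were *alphaTry*, *betaTry* and the near-identical pair *gammaTry* and *deltaTry*. *alphaTry* (FBgn0003863, 2R, 11344260–11345119, minus strand) had 420, 249.7 and 965 CPM in the controls and 4112, 1853 and 1511 CPM in the *pros*-depleted EEs. Its groups did not overlap, but its libraries differed several-fold within each group, with control replicate 3 and *pros*-depleted replicate 1 the high ones. Its log2 fold change of 2.19 ± 0.56 (SE; edgeR adjusted p = 0.0230) was not called, although DESeq2 called it (adjusted p = 3.32e-05) and edgeR did without control replicate 3 (0.00829). *betaTry* (FBgn0010357, 2R, 11346325–11347395, plus strand) had 324, 158 and 725 CPM in the controls and 1669, 765 and 784 CPM in the *pros*-depleted EEs. The gap between its groups was narrow, and its log2 fold change of 1.41 (95% interval 0.16 to 2.67; edgeR adjusted p = 0.0938) was not called. The count of *alphaTry* was 1.3, 1.58 and 1.33 times that of *betaTry* in the controls and 2.46, 2.42 and 1.93 times in the *pros*-depleted libraries, so this ratio within a library was separated between the groups as well.

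*gammaTry* (FBgn0010359, 2R, 11349061–11349870, minus strand) had 169, 102 and 418 CPM in the controls and 1527, 765 and 609 CPM in the *pros*-depleted EEs, with a log2 fold change of 2.08 ± 0.55 (SE; edgeR adjusted p = 0.0276) that was not called. *deltaTry* (FBgn0010358, 2R, 11355319–11356128, plus strand) gave almost the same values, 169, 102 and 417 CPM in the controls and 1523, 761 and 606 CPM in the *pros*-depleted EEs. Their raw counts differed by 1, 8 and 26 in the controls, at 6700, 2862 and 14525 counts for *gammaTry*, and by 126, 93 and 105 in the *pros*-depleted libraries, at 48759, 20876 and 18565 counts. If reads had been divided at random between 2 equal copies, the differences would have had an SD of 75.6 to 312 counts. *CG30031*, a gene between them in the cluster, differed from *gammaTry* by 2 to 8 counts in every library. The agreement was thus closer than independent counting gives, so these genes cannot be treated as separate measurements, and how reads with several positions were counted is not given in the sources used here. The numbers of genes given in this report nevertheless include each of them. DESeq2 called *gammaTry* and *deltaTry* (adjusted p = 9.32e-05 and 9.7e-05), and edgeR did without control replicate 3 (0.00665 and 0.00675).

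Of the remaining trypsins, *zetaTry* (FBgn0011556, 2R, 11339186–11340132, minus strand) had 1.31, 4.57 and 11.4 CPM in the controls and 18.3, 36.2 and 22.9 CPM in the *pros*-depleted EEs. *etaTry* (FBgn0011554, 2R, 11340513–11341423, minus strand) had 6.97, 0.892 and 4.31 CPM in the controls and 12.4, 7.87 and 10.9 CPM in the *pros*-depleted EEs. Both had groups that did not overlap and were not called, with log2 fold changes of 2.16 (95% interval 0.66 to 3.67; edgeR adjusted p = 0.0434) and 1.35 (0.00 to 2.69; 0.128). *zetaTry* was called only in the fit without control replicate 3 (adjusted p = 0.00956). *epsilonTry* (FBgn0010425, 2R, 11345237–11346066, minus strand) was the exception of the cluster, with 95.5, 25.3 and 277 CPM in the controls and 183, 99.8 and 123 CPM in the *pros*-depleted EEs. Its highest and its lowest library were both controls, and its means were 133 ± 129.8 and 135 ± 42.8 CPM (mean ± SD, n = 3). Its log2 fold change of 0.03 had an interval of −1.56 to 1.62, which is too wide to show that its level stayed the same. It lies 117 bp from *alphaTry* on the same strand, and the length-corrected level of *alphaTry* was 4.25, 9.54 and 3.37 times that of *epsilonTry* in the controls and 21.7, 17.9 and 11.8 times in the *pros*-depleted libraries. The corresponding ratio of *kappaTry* to *epsilonTry* was 0.0827, 0.176 and 0.0295 in the controls and 0.63, 1.29 and 0.779 in the *pros*-depleted libraries.

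**Figure D2:**
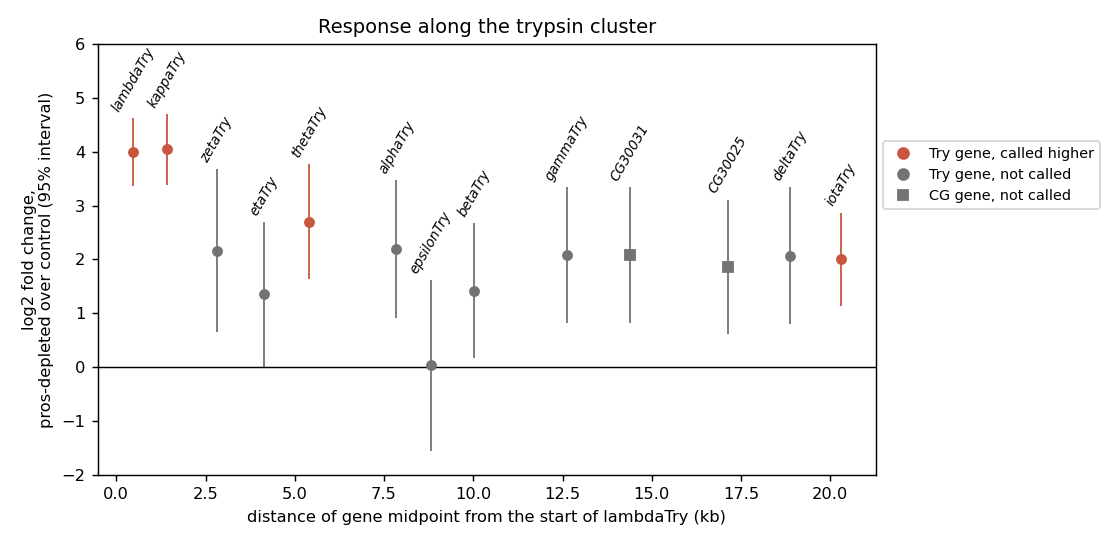
log2 fold change (*pros*-depleted over control, edgeR, with 95% intervals) of the 11 trypsins against the distance of each gene midpoint from the start of *lambdaTry* in kb, with called genes in red and the neighbouring genes *CG30025* and *CG30031* as squares. *lambdaTry* and *kappaTry* at the left end have the highest values, 4.0 and 4.05, and *epsilonTry* in the middle lies at 0.03.

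The 16 Jonah genes lie at 7 loci (genes within 20000 bp of each other) on 4 chromosome arms, 11 of them have a single exon in the reference annotation and 5 carry introns, and they code for 258 to 276 residues. They did not move as one group: 2 were called higher and 0 lower, against 4.73% and 7.96% of all genes tested. The log2 fold change was positive for 6, against 51.4% of all genes, and negative for 10. Its median was −0.22 in a range of −2.40 to 4.66. The CPM of both groups overlapped for 13 of the 16. For the other 3 the *pros*-depleted libraries all lay above the controls, as they did for 20.4% of all genes. At an unadjusted p under 0.05 by edgeR, 4 were higher and 1 was lower, against 18.7% and 20.0% of all genes. DESeq2 called 0 Jonah genes lower, against 11.1% of all genes it tested.

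Both called Jonah genes belong to Jon65A, a stretch of 15289 bp on 3L with 4 members. *Jon65Aiv* (FBgn0250815, 3L, 6039155–6040135, plus strand, with an intron) had 217, 63.3 and 459 CPM in the controls and 3999, 3169.8 and 2288 CPM in the *pros*-depleted EEs. Its mean rose 12.8-fold, from 247 ± 199.6 to 3152 ± 856 CPM (mean ± SD, n = 3), and the estimated log2 fold change was 3.68 ± 0.65 (SE; edgeR adjusted p = 0.00519). *Jon65Aiii* (FBgn0035665, 3L, 6050757–6051690, plus strand) had 95.5, 19.2 and 111 CPM in the controls and 2671, 1509.7 and 1505 CPM in the *pros*-depleted EEs. With a 25.2-fold higher mean and a log2 fold change of 4.66 ± 0.65 (SE; edgeR adjusted p = 0.00176), it had the highest fold change of the 27 genes and was called in all 13 alternative fits. *Jon65Aiv* was called without control replicate 2 or 3 but not without control replicate 1 (adjusted p = 0.0225), *pros*-depleted replicate 1 (0.0168), replicate 2 (0.0134) or replicate 3 (0.0119), while its log2 fold change stayed between 3.21 and 4.48 in these fits.

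The other Jon65A genes were less clear. *Jon65Aii* (FBgn0035666, 3L, 6052321–6053215, plus strand) had 14.9, 23.1 and 45.5 CPM in the controls and 274, 107 and 30.2 CPM in the *pros*-depleted EEs. *Jon65Ai* (FBgn0035667, 3L, 6053493–6054443, minus strand) had 6.95, 12.6 and 71.3 CPM in the controls and 94.6, 52.9 and 34.8 CPM in the *pros*-depleted EEs. For both, control replicate 3 lay above *pros*-depleted replicate 3, and the log2 fold changes of 2.30 (95% interval 0.60 to 4.0; edgeR adjusted p = 0.0527) and 1.00 (−0.81 to 2.82; 0.386) were not called. *Jon65Aii* starts 630 bp beyond the end of *Jon65Aiii*.

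The Jon99C genes on 3R, 3 genes within 3974 bp, were not called in either direction, and *Jon99Ciii* and *Jon99Cii* had the highest mean CPM of the 27 proteases in the control EEs. *Jon99Ciii* (FBgn0003357, 3R, 29922216–29923455, plus strand) had 536, 788 and 2151 CPM in the controls and 1219, 818 and 415 CPM in the *pros*-depleted EEs. *Jon99Cii* (FBgn0003356, 3R, 29923754–29924615, minus strand) had 460.1, 684 and 1887 CPM in the controls and 1135, 773 and 388 CPM in the *pros*-depleted EEs. Both genes followed the same order of libraries, with control replicate 3 the highest and *pros*-depleted replicate 3 the lowest of all 6. Their log2 fold changes were −0.50 (95% interval −1.77 to 0.76; edgeR adjusted p = 0.538) and −0.40 (−1.67 to 0.87; 0.633), and without control replicate 3 both turned positive, to 0.295 and 0.41. The count of *Jon99Ciii* was 1.14 to 1.16 times that of *Jon99Cii* in the controls and 1.06 to 1.07 times in the *pros*-depleted libraries. Such closely tracking counts leave it uncertain how far these genes were measured apart.

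*Jon99Ci* (FBgn0003358, 3R, 29925226–29926189, minus strand) had 42.2, 22.9 and 106 CPM in the controls and 37.8, 23.1 and 12.7 CPM in the *pros*-depleted EEs. *Jon99Fii* (FBgn0039777, 3R, 30487016–30487928, minus strand) had 37.8, 67.4 and 189.9 CPM in the controls and 140.3, 84.2 and 42.6 CPM in the *pros*-depleted EEs. *Jon99Fi* (FBgn0039778, 3R, 30488963–30489895, plus strand) had 28.9, 47.9 and 129 CPM in the controls and 73.8, 43.1 and 31.1 CPM in the *pros*-depleted EEs. None of them separated the groups, and their log2 fold changes were −1.22, −0.14 and −0.48 with SEs of 0.57, 0.61 and 0.54 (edgeR adjusted p = 0.158, 0.885 and 0.552). Without control replicate 3, *Jon99Fii* and *Jon99Fi* turned positive, to 0.751 and 0.353.

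The Jon25B genes on 2L diverged from each other. *Jon25Biii* (FBgn0031653, 2L, 4949941–4950767, minus strand) had 11.4, 9.78 and 24.9 CPM in the controls and 59.1, 29.8 and 30.2 CPM in the *pros*-depleted EEs. *Jon25Bi* (FBgn0020906, 2L, 4954279–4955144, minus strand) had 30.2, 6.07 and 43.5 CPM in the controls and 6.8, 6.23 and 2.13 CPM in the *pros*-depleted EEs. The groups of *Jon25Biii* did not overlap, and those of *Jon25Bi* did, through control replicate 2. The log2 fold changes were 1.37 ± 0.41 (SE; edgeR adjusted p = 0.0437) for *Jon25Biii* and −2.40 ± 0.69 (SE; edgeR adjusted p = 0.0365) for *Jon25Bi*, and neither was called. DESeq2 called *Jon25Biii* (adjusted p = 0.00368), and edgeR called *Jon25Bi* lower without control replicate 2 (log2 fold change −2.88, adjusted p = 0.00723). Within a library, the length-corrected level of *Jon25Biii* was 0.394, 1.69 and 0.6 times that of *Jon25Bi* in the controls and 9.11, 5.01 and 14.8 times in the *pros*-depleted EEs. *Jon25Bii* (FBgn0031654, 2L, 4952243–4953136, minus strand), which lies between them, had 13.1, 3.21 and 17.9 CPM in the controls and 14.8, 8.75 and 5.18 CPM in the *pros*-depleted EEs, with a log2 fold change of −0.26 (95% interval −1.60 to 1.09; edgeR adjusted p = 0.78).

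The remaining Jonah genes were not called. *Jon74E* (FBgn0023197, 3L) had 150, 23.7 and 309 CPM in the controls and 103, 59.4 and 47.5 CPM in the *pros*-depleted EEs, with a log2 fold change of −1.20 (95% interval −2.90 to 0.50; edgeR adjusted p = 0.271). The gene model in the count table spans 17546739 to 17549127 and that of the reference annotation 17548077 to 17549127, so the counts include an exon that the reference does not assign to the gene. *Jon66Ci* (FBgn0035886, 3L, 8391540–8392377, plus strand) had 4.61, 13.7 and 2.65 CPM in the controls and 5.51, 6.56 and 6.43 CPM in the *pros*-depleted EEs. *Jon66Cii* (FBgn0035887, 3L, 8392820–8393649, minus strand) had 1.74, 6.0 and 1.35 CPM in the controls and 1.41, 1.36 and 0.919 CPM in the *pros*-depleted EEs. In these neighbouring genes control replicate 2, which was the lowest control for most of the proteases, was the highest library of all. Their log2 fold changes were −0.18 and −1.29 (edgeR adjusted p = 0.837 and 0.14). *Jon44E* (FBgn0001285, 2R, 8691448–8692844, plus strand) was close to the limit of detection, with means of 0.348 ± 0.296 and 0.871 ± 0.521 CPM (SD, n = 3), and 49 bp of its exons are shared with *CG8586* on the opposite strand.

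**Figure D3:**
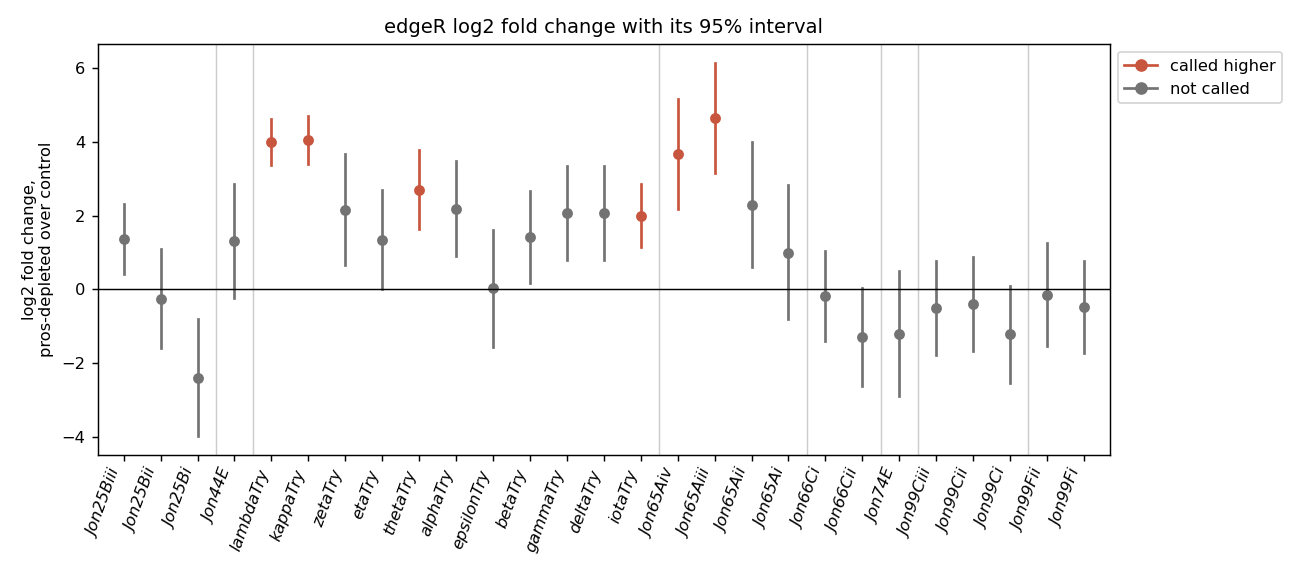
log2 fold change (*pros*-depleted over control, edgeR) of each of the 27 proteases with its 95% interval, in genome order with lines between loci and called genes in red. The 6 called genes lie between 2.00 and 4.66, and the intervals of the Jon99 genes all include 0.

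Corrected for exon length, the order of the genes changed between the groups. In the controls *Jon99Cii* was highest with 1172 ± 889.9 CPM per kb, followed by *Jon99Ciii* with 934 ± 701 and *alphaTry* with 634 ± 435 (SD, n = 3). Their ranges of mean ± SD overlapped. These SDs are spreads between libraries, which genes measured in the same libraries share, so they do not measure the differences between genes. The order itself was not tested. In the *pros*-depleted EEs *Jon65Aiv* was highest with 3487 ± 947 CPM per kb, followed by *alphaTry* with 2898 ± 1644 and *Jon65Aiii* with 2166 ± 767. These ranges overlapped as well. Within a library, however, the length-corrected level of *Jon65Aiii* was 0.69, 0.492 and 0.68 times that of *Jon65Aiv* in *pros*-depleted replicates 1 to 3. *Jon65Aiii* had been in place 11 in the controls with 85.8 ± 56.0 CPM per kb, *kappaTry* went from place 22 to 12, and *Jon44E* was in place 27 in both groups.

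The make-up of the protease counts differed between the groups in every library. Jon65A genes took 11.6%, 4.77% and 8.12% of the counts on the 27 genes in control replicates 1 to 3 and 36.2%, 41.8% and 43.7% in *pros*-depleted replicates 1 to 3. Jon99C and Jon99F genes together took 38.3%, 65.0% and 52.8% in the controls and 13.4%, 15% and 10.1% in the *pros*-depleted EEs. The trypsin cluster took 42.8%, 27.7% and 34.4% and then 49.4%, 42.2% and 45.1%, so its ranges overlapped slightly. *Jon99Ciii* was the protease with the most counts in each control, *alphaTry* in *pros*-depleted replicate 1 and *Jon65Aiv* in *pros*-depleted replicates 2 and 3. Set against *Jon99Cii* within the same library and corrected for length, *Jon65Aiv* stood at 0.45, 0.0882 and 0.232 in the controls and at 3.36, 3.91 and 5.62 in the *pros*-depleted EEs. These ratios do not depend on how libraries were scaled, and they are a description of shares, which add up to a whole and so do not move independently.

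**Figure D4:**
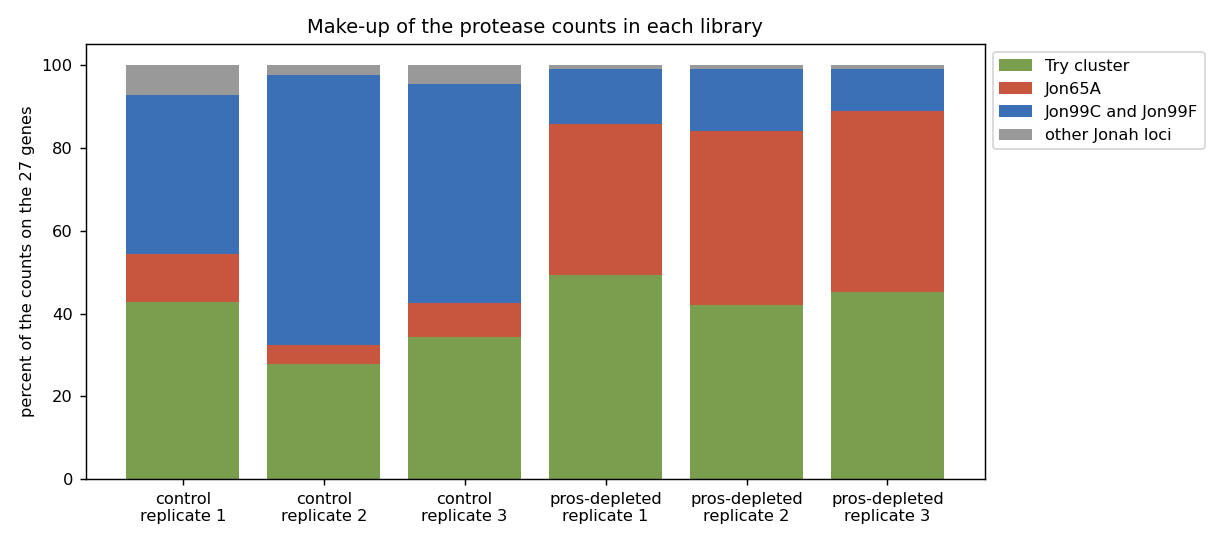
Percent of the counts on the 27 proteases taken by the trypsin cluster, Jon65A, Jon99C with Jon99F, and the other Jonah loci, as 1 stacked bar per library. The Jon65A part is at most 11.6% in the controls and at least 36.2% in the *pros*-depleted libraries, and the Jon99 part at least 38.3% and at most 15%.

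Summed, the 27 genes took 0.281%, 0.235% and 0.814% of all counts in control replicates 1 to 3 and 2.06%, 1.10% and 0.99% in *pros*-depleted replicates 1 to 3, or 0.443 ± 0.322% and 1.38 ± 0.589% (SD, n = 3). The ranges did not overlap, but control replicate 3 came close to the lowest *pros*-depleted library. Without *deltaTry*, whose counts repeat those of *gammaTry*, the shares were 0.265%, 0.225% and 0.774% and then 1.9%, 1.03% and 0.922%, in the same order.

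The proteases varied more between replicates than other genes did. The highest control library was a median of 4.47 times the lowest over the 27 genes, against 1.41 times over all genes tested, and within the *pros*-depleted group the medians were 2.37 and 1.51. Control replicate 3 was the highest control for 24 of the 27 and control replicate 2 the lowest for 16. *pros*-depleted replicate 1 was the highest of its group for 22 and replicate 3 the lowest for 20. Some enterocyte markers shared this order of libraries and others did not. *Amy-p*, *Amy-d* and *Mal-A6* had it in both groups, and the amylase gene *Amy-p* had 34.6, 28.8 and 58.5 CPM in the controls. The other enterocyte markers, *nub* and *mex1* among them, did not have all of it. *nub*, a transcription factor gene of enterocytes, had 4.50, 1.39 and 2.76 CPM in the controls. In the *pros*-depleted EEs *nub* had 26.7, 31.8 and 16.2 CPM and *Amy-p* 462, 237 and 208 CPM, so that both were higher in every *pros*-depleted library than in any control, whereas *mex1* was lower in every one. The SE of the 27 log2 fold changes had a median of 0.574, against 0.255 over all genes tested.

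A list of 15 other digestive peptidases of the gut was set beside the Try and Jonah genes. Of these 14 were found in the table and 12 tested, edgeR called 1 higher, 1 lower and 10 in neither direction, with a median log2 fold change of 1.71. At an unadjusted p under 0.05, 7 were higher, *CG30025* and *CG30031* among them, and 2 lower, against 18.7% and 20.0% of all genes. DESeq2 called 4 higher and 2 lower, against 8.23% and 11.1% of all genes it tested. *Ser6*, a further serine protease gene, had 3.83, 2.28 and 5.52 CPM in the controls and 34.2, 32.5 and 20.8 CPM in the *pros*-depleted EEs (log2 fold change 2.90; edgeR adjusted p = 0.00085). *Try29F*, a trypsin gene outside the cluster, went the other way, with 145, 128 and 139.5 CPM in the controls and 77.0, 58.2 and 39.3 CPM in the *pros*-depleted EEs (log2 fold change −1.24; edgeR adjusted p = 0.00876). Its difference from the clustered trypsins was not tested, and the interval of *epsilonTry* includes its value. *CG12374* had 700.4, 57.5 and 2383 CPM in the controls and 18.2, 45.7 and 39.7 CPM in the *pros*-depleted EEs, and with such scattered controls its log2 fold change of −4.92 ± 1.15 (SE; edgeR adjusted p = 0.0161) was not called, while DESeq2 called it lower.

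Digestive enzyme genes of the fly are known to be held down by dietary sugar through the activin ligand *daw*, and Mondo, *bigmax* and *sug* act in sugar sensing. Of 8 genes of that circuit 7 were found and tested and 0 were called, with a median log2 fold change of −0.11. At an unadjusted p under 0.05 by edgeR 2 of them were lower and 0 higher, against 20.0% and 18.7% of all genes. DESeq2 called 1 lower, *bigmax*, and 0 higher, against 11.1% and 8.23% of all genes it tested. *bigmax* had 17.7, 18.7 and 21.3 CPM in the controls and 12.2, 10.3 and 10.9 CPM in the *pros*-depleted EEs, which did not overlap, with a log2 fold change of −0.79 (edgeR adjusted p = 0.0108). *sug* had 18.2, 19.6 and 25.7 CPM and then 11.4, 6.45 and 15.6 CPM, also without overlap and not called. The study also counts *sug* among the transcription factors of EE subtypes.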

How the data were processed

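RNA from 6 libraries of FACS-sorted EEs, 3 control and 3 *pros*-depleted, was compared. The authors deposited raw gene counts, made by featureCounts 1.6.3 from reads mapped to BDGP6, for 17558 genes without normalization. The aligner, the use of strand and the treatment of reads with several positions are not given in the sources used here. Samples were grouped by the condition in their labels, and whether the replicates came from separate fly cultures is not stated, so p-values measure the spread between these pools.

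Counts were fitted with the edgeR 4.0.16 quasi-likelihood test in R 4.3.3 on 10374 genes that reached 10 counts in 3 or more libraries, with TMM scaling and Benjamini-Hochberg adjustment over all genes tested. Genes were called at an adjusted p below 0.01 with a log2 fold change beyond 0.5 in size, the thresholds that the study used with DESeq2. The study reported more genes up than down upon *pros* depletion. Here edgeR called 491 genes higher and 826 lower, and DESeq2 942 and 1266. The cause of this difference was not tested. The SE of a log2 fold change was derived from its F statistic. CPM use TMM-scaled library sizes, and CPM per kb divide them by the exon length in the deposited table. Exact permutation tests of the CPM were two-sided. The fit was first tested on simulated data. Alternatives were DESeq2 1.42.0, RLE factors, total counts only, other count filters, a replicate block, the mitochondrial genome left out, each library left out in turn and other thresholds. Leaving *deltaTry* out of the share was added after seeing the data. Members and gene lists were chosen with earlier results of these data known. Values per library are given for members that were called or had a mean of at least 50 counts. List genes are named where called or among the 3 largest changes. *CG30025*, *CG30031*, *CG8586*, *Amy-p*, *nub*, *mex1*, *Myo31DF*, *Npc2f* and *Ptx1* are named for position, copies, overlaps and cell type. Protein lengths, exon numbers and checks of coordinates come from the Ensembl annotation of BDGP6, whose coordinates matched the table for 26 of 27 members. No sequences are printed. Figures were drawn with matplotlib 3.10.9.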

Additional observations from a re-analysis of the deposited data

How the results depend on the processing

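*Jon65Aiii*, *kappaTry* and *lambdaTry* were called higher in all 13 refits. The count of proteases called higher, 6 with the settings used above, was 10 by DESeq2, which added *alphaTry*, *gammaTry*, *deltaTry* and *Jon25Biii*, 11 at an adjusted p under 0.05, 3 with a replicate block and 3 to 9 when 1 library was left out. It was 3 without control replicate 1, *pros*-depleted replicate 1 or *pros*-depleted replicate 2, 9 without control replicate 3, 4 without control replicate 2 and 5 without *pros*-depleted replicate 3. The count called lower, 0 by edgeR and by DESeq2, was 1 at an adjusted p under 0.05 and 0 to 1 when 1 library was left out, *Jon25Bi* without control replicate 2. The labels do not say whether replicate numbers pair the samples. Deviations of same-numbered libraries correlated at −0.164, 0.196 and 0.0995, and those of differently numbered libraries at −0.288 to 0.231. With 3 libraries per group these correlations cannot decide whether samples were paired. In the fit with the replicate block *thetaTry*, *iotaTry* and *Jon65Aiv* were not called (adjusted p = 0.0198, 0.0235 and 0.0112).

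Of 350 refitted log2 fold changes of single genes 14 changed sign, all of them in genes that were not called. With the replicate block *Jon66Ci* was at 0.145 and *Jon99Fii* at 0.0666, and without a low-count filter *epsilonTry* was at −0.006. Over the fits without 1 library, *Jon25Bii* ranged from −0.712 to 0.211, *epsilonTry* from −0.474 to 1.16, *Jon66Ci* from −0.577 to 0.75, *Jon99Ciii* from −0.899 to 0.295, *Jon99Cii* from −0.789 to 0.41, *Jon99Fii* from −0.623 to 0.751 and *Jon99Fi* from −0.877 to 0.353. The cause was not tested. Scaling by total counts only moved the median log2 fold change of all genes from 0.0211 to 0.137 and that of the 27 proteases from 1.35 to 1.47, with the same 6 called. That median was 0.957 without *pros*-depleted replicate 1, 1.01 without control replicate 2 and 2.15 without control replicate 3, where 22 of the 27 were positive in place of 17. The SEs of the Jon99 genes, 0.54 to 0.61 on the log2 scale, limit what could be seen of them.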

Other observations

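The genes next to the protease loci were looked at after the values above were known. Within 3 kb of a locus or inside it lie 26 other genes, of which 1 was called higher, 1 lower, 17 in neither direction and 7 were not tested for low counts. Over all genes tested 4.73% were called higher and 7.96% lower, so the calls among these neighbours were about as frequent as among all genes. The gene called higher, *CG6462*, lies at 6037111–6038188 on 3L, between *yip7* and *Jon65Aiv*. It had 13, 6 and 3 counts in the controls and 430, 401 and 304 counts in the *pros*-depleted EEs, which gave a log2 fold change of 5.88 ± 0.42 (SE; edgeR adjusted p = 0.000119). *CR43952*, between *CG6462* and *yip7*, was not called (log2 fold change 3.23, edgeR adjusted p = 0.0352). The serine protease gene *yip7* had 162, 76.4 and 517 CPM in the controls and 1422, 888 and 563 CPM in the *pros*-depleted EEs. Its groups did not overlap, and it was not called (log2 fold change 1.93, edgeR adjusted p = 0.065). *tan*, on the far side of *Jon65Ai*, had a log2 fold change of −0.58 (edgeR adjusted p = 0.0958) and was not called. At the trypsin cluster, *CG12384*, which starts just beyond *iotaTry*, had 3189, 3291 and 3252 counts in the controls and 2972, 3388 and 2470 counts in the *pros*-depleted EEs (log2 fold change 0.03 ± 0.22). *sha*, on the side of *lambdaTry*, had at most 4 counts in any library. The gene called lower was *jet*, beside *Jon25Biii*, with a log2 fold change of −1.28 ± 0.20 (SE; edgeR adjusted p = 0.00259).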
